A study of Saccharomyces cerevisiae with 8 samples.

Results

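Both strains described here carry a synthetic version of the human HPRT1 locus inside chromosome XI of Saccharomyces cerevisiae, in reversed order in one and in forward order in the other. The 4 libraries of the integrated strains were chosen by their labels from the 8 libraries of the series. They fall into synHPRT1R_integrated, in which the reversed sequence (read back to front, without complementing) sits in BY4741, and synHPRT1_integrated, in which the forward sequence sits in BY4741, with 2 libraries each. BY4741 is a haploid laboratory strain of mating type a with defective HIS3, LEU2, MET17 and URA3. Both strains grew in YPD, a rich medium, overnight at 30 °C and then for 6 h after dilution to OD 0.1, until an OD near 0.6. The other 4 libraries come from strains that carry the same sequences on a yeast artificial chromosome (YAC) and grew in SC-Leu; they are given beside some results and enter no test. The labels do not say whether replicates were separate clones or cultures, so spreads and p-values measure the difference between these libraries, which may be technical.

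CAGE (cap analysis of gene expression) sequences the capped 5′ ends of RNA, and a peak of such ends marks a place where transcription starts on 1 strand. Yeast genes usually start in a short nucleosome-depleted stretch just upstream of the coding sequence, and such stretches often start RNA in both directions. HPRT1 encodes a purine salvage enzyme whose yeast counterpart is HPT1. The comparison asks whether DNA that yeast has never used starts transcription alike in its reversed and forward order, and whether the order bears on native genes. The data are the authors' peak lists, so a gene or region has a peak or has none; fold is the peak height over background as the authors' peak caller gave it. Folds are used here to rank peaks within a list, as a percentile among the native peaks of that list.

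The sequences below show the native sites that the results turn on: the start of RRP45, with a peak in both synHPRT1R_integrated libraries alone; the start of SMC4, with a peak in both synHPRT1_integrated libraries alone; the start of PIR3, the gene next to the insertion; and a site between PIR3 and the insertion, which had a peak in all 4 integrated libraries. They are taken from the R64 genome (RefSeq), which has the chromosome lengths of sacCer3, and are written 5′ to 3′ on the strand of the gene or peak. The first 3 run from 250 bases before to 50 bases after the annotated start, and capitals mark its ATG and each TATAAA on either strand. The last is the core shared by the peaks of all 4 libraries, and holds no TATAAA.
RRP45, chrIV:1020497-1020796, plus strand: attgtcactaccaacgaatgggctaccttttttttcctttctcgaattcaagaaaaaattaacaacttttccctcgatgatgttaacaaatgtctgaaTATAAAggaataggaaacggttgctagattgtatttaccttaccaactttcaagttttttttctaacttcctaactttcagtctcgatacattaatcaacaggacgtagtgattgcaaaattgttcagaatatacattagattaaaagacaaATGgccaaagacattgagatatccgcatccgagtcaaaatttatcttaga
SMC4, chrXII:301993-302292, plus strand: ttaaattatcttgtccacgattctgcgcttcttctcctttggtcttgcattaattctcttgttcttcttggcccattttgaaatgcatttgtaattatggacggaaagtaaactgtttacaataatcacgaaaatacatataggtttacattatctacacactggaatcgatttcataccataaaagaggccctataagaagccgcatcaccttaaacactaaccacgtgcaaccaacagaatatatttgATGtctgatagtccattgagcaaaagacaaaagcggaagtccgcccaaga
PIR3, chrXI:144151-144450, plus strand: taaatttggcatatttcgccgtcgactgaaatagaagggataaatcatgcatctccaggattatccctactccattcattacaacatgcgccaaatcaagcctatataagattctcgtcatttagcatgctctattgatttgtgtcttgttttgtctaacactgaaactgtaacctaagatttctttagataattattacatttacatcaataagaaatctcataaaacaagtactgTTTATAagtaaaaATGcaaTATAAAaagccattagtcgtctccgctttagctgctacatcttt
Junction site, chrXI:145942-146121, minus strand: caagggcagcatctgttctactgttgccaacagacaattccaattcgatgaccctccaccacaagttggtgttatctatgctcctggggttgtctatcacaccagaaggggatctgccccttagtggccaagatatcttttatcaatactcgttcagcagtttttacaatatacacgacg
TATAAA stands in 45.2% of the 6001 gene starts with a full window of 300 bases, so its presence at RRP45 and PIR3 is common. At RRP45 it lies 152 bases before the ATG on the gene's strand. At PIR3 the copy on the gene's strand lies 6 bases after the first base of the ATG, inside the gene. The PIR3 copy on the other strand lies 13 bases before the ATG.

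Native peaks were more numerous in the synHPRT1R_integrated lists. The nuclear chromosomes held 3205 and 3383 native peaks in the synHPRT1R_integrated libraries and 3074 and 3156 in the synHPRT1_integrated libraries, so the groups did not overlap, and the counts of reads behind them were not used here. Native start peaks lay on the strand of their gene in 2393 to 2665 genes a library, against 590 to 665 genes with a peak on the opposite strand. Of the mating type a markers, MFA1, MFA2, STE6, AGA2 and ASG7 each had a start peak in every integrated library, BAR1 in none and STE2 in the synHPRT1R_integrated libraries alone, while of the alpha markers MF(ALPHA)2, STE3 and SAG1 had none and MF(ALPHA)1 had 1, in synHPRT1R_integrated replicate 2. LEU2, MET17 and URA3 had no start peak in these libraries. HIS3, the other defective marker, differed between replicates. It had a start peak in synHPRT1R_integrated replicate 2 (fold 9.51, percentile 68.5) and synHPRT1_integrated replicate 1 (fold 33.8, percentile 90.4), and none in the other replicate of either strain.

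Both orders of the foreign sequence were densely started in yeast, on both strands and at overlapping densities. The insert held 90 and 101 peaks in the synHPRT1R_integrated libraries and 87 and 93 in the synHPRT1_integrated libraries. Per kb of strand this is 0.447 and 0.502 peaks in synHPRT1R_integrated, against 0.432 and 0.462 in synHPRT1_integrated, and the ranges of the groups overlap. The log2 density of synHPRT1R less that of synHPRT1 was 0.08 (exact two-sided permutation test, p = 0.667). This exact test cannot go below p = 0.333 with 2 libraries in each group.

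Native chromosomes held 0.133 and 0.140 peaks per kb of strand in synHPRT1R_integrated and 0.127 and 0.131 in synHPRT1_integrated. The insert was therefore 3.37 and 3.58 times as dense as native DNA in the synHPRT1R_integrated libraries and 3.40 and 3.54 times in the synHPRT1_integrated libraries. The mean log2 ratio was 1.80 ± 0.04 (SD, n = 4), and each of the 4 ratios was above 0 (p = 0.125 by an exact sign-flip test, two-sided, the smallest that 4 libraries allow). Divided by native density, the difference between the orders shrank to 0.004 on the log2 scale. Peaks covered 12.4% and 13.6% of the insert's strands in synHPRT1R_integrated, against 12.8% and 13.1% in synHPRT1_integrated.

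**Figure D1:**
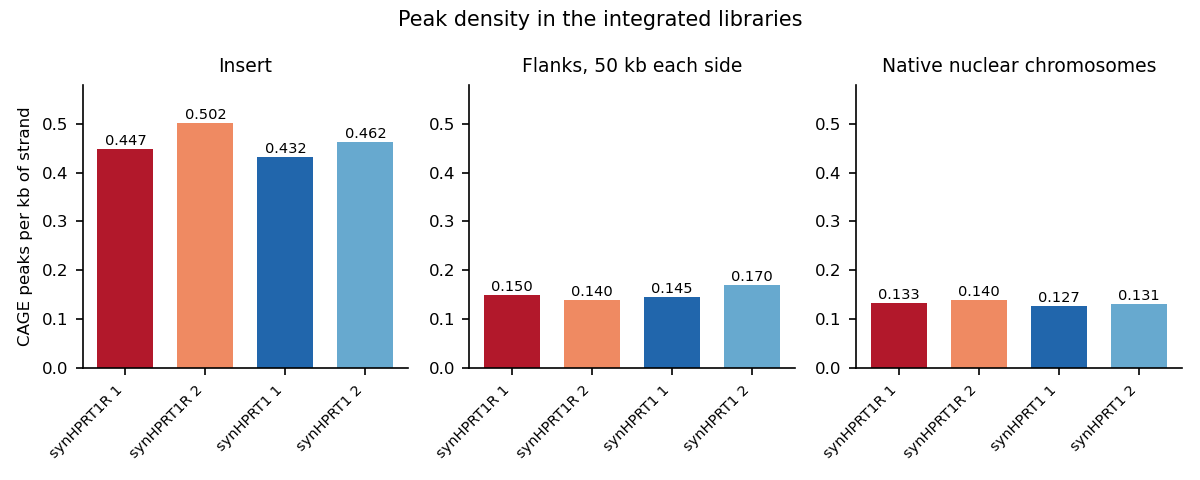
Bars give CAGE peaks per kb of strand on the insert, in the 50 kb on each side of it and on all native nuclear chromosomes, for each integrated library. The insert bars sit between 0.432 and 0.502 in all 4 libraries, and native density between 0.127 and 0.140.

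Insert peaks were split about evenly between the strands. Plus-strand peaks made up 52.2% of the insert peaks in synHPRT1R_integrated replicate 1 (95% Clopper-Pearson interval 41.4 to 62.9, counting error only) and 51.5% in replicate 2, against 50.6% and 51.6% in synHPRT1_integrated. The groups overlapped and differed by 0.76 percentage points (exact two-sided permutation test, p = 0.667), a difference whose sign changed with the peak threshold.

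Insert peaks ranked below the native median by fold, on a measure that did not separate the orders. Their median percentile by fold was 44.7 and 48.2 in synHPRT1R_integrated and 43.8 and 48.1 in synHPRT1_integrated (difference 0.52, exact two-sided permutation test, p = 0.667). Ranked by −log10 q instead, the medians were 44.0 and 48.4 in synHPRT1R_integrated and 50.5 and 49.7 in synHPRT1_integrated, groups that did not overlap (difference -3.86, exact two-sided permutation test, p = 0.333). By fold, native peaks at gene starts had medians of 58.7 and 58.7 in synHPRT1R_integrated and 59.1 and 59.3 in synHPRT1_integrated, and native peaks elsewhere 21.6 and 24.0, against 22.3 and 27.3. Insert peaks thus stood between both native classes in every library. Peaks in the top 10% of the native range were few, at 3.33% and 1.98% of the insert peaks in synHPRT1R_integrated and 4.60% and 3.23% in synHPRT1_integrated, where native peaks have 10% by construction. The shape differed somewhat: the lowest 20% of the native range took 15.6% and 14.9% of insert peaks in synHPRT1R_integrated and 21.8% and 26.9% in synHPRT1_integrated, groups that did not overlap, a difference noticed in the data and not tested.

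**Figure D2:**
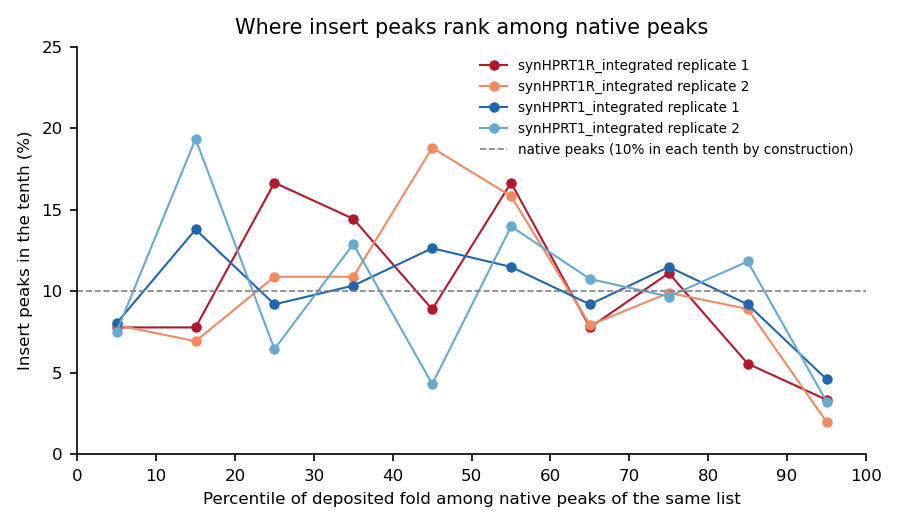
Points give the share of each library's insert peaks in successive bins of 10% of the native peaks ranked by deposited fold, with lines joining the bins of 1 library and a dashed line at the native 10%. All 4 libraries fall below the dashed line in the top bin, to between 1.98% and 4.60%.

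Peaks were spread along the whole insert in both orders. The longest stretch without a peak on either strand was 5274 and 5062 bp in synHPRT1R_integrated and 5823 and 4715 bp in synHPRT1_integrated. The left end was more heavily used in the reversed order: the first 5 kb held 8 and 7 peaks in synHPRT1R_integrated and 3 and 2 in synHPRT1_integrated, while the last 5 kb held 2 and 4, against 4 and 4. This stretch was picked out after its values were seen and was given no test. The first 5 kb hold different sequence in the 2 strains.

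About 1 in 2 insert regions recurred between replicates. Merging overlapping peaks on a strand gave 122 regions on the reversed insert, of which 65 (53.3%) had a peak in both libraries, and 115 on the forward insert, of which 59 (51.3%) did. Of the regions in both integrated libraries, 54 of 65 (83.1%) on synHPRT1R and 44 of 59 (74.6%) on synHPRT1 also had a peak in both YAC libraries of the same sequence. Of the regions in 1 integrated library, 21 of 57 on synHPRT1R and 18 of 56 on synHPRT1 did. The YAC libraries are separate strains in another medium.

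Reproducible starts were ranked by the lower of their replicates' fold percentiles, each within its own strand list. The first on the reversed insert lay on the minus strand at insert positions 52154 to 52453, counted from the left end, with folds of 39.9 and 34.3. It was followed by plus-strand starts at 88539 to 88800 (folds 41.4 and 34.6) and 67762 to 68330 (34.9 and 32.2). On the forward insert the first 3 were a plus-strand start at 56409 to 56745 (folds 47.6 and 49.5), a minus-strand start at 50346 to 50737 (47.7 and 47.5) and a plus-strand start at 39718 to 40021 (40.5 and 35.0). All 6 were present in both YAC libraries of their sequence. Their within-list percentiles were 89.7 or higher in each integrated library.

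**Figure D3:**
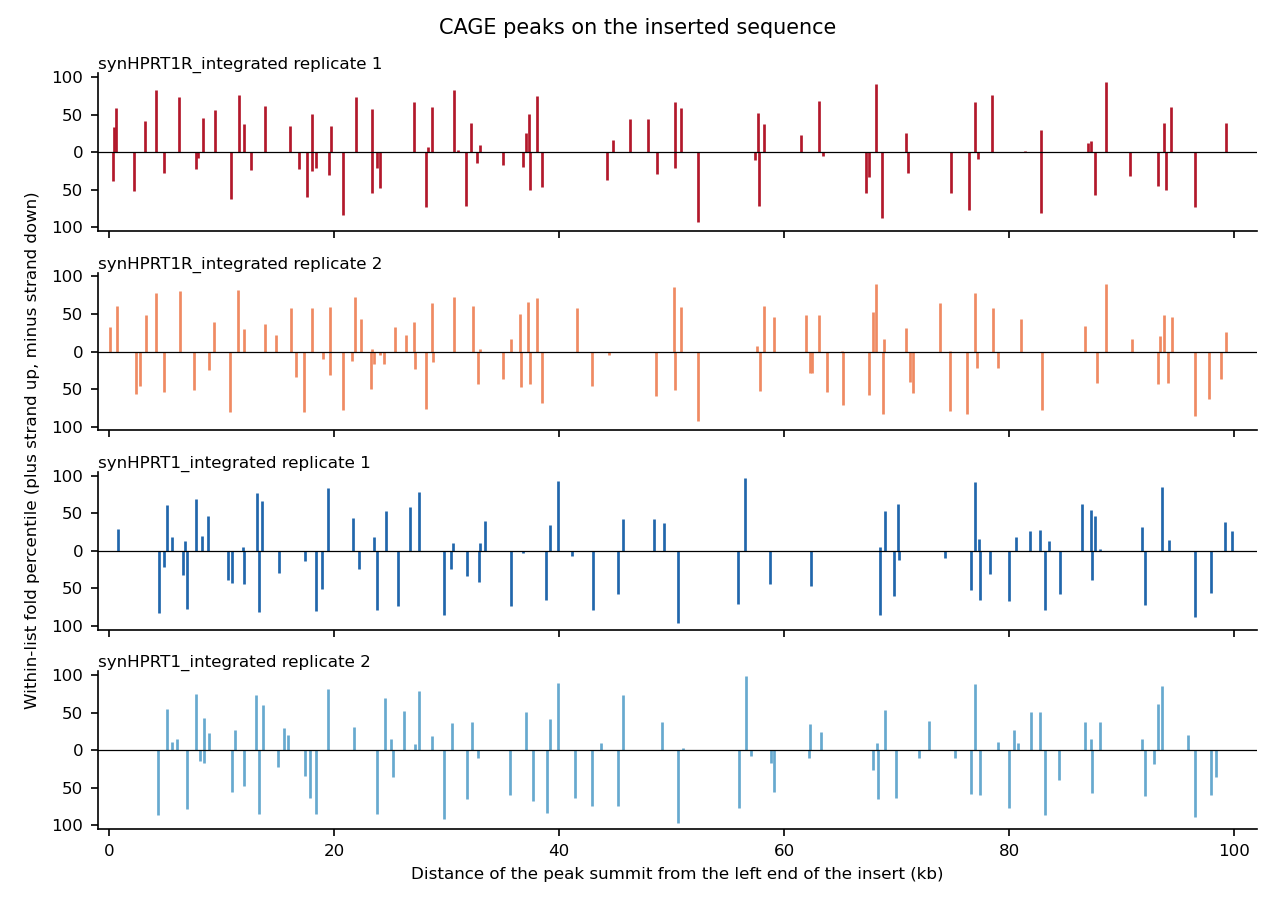
Each line is 1 insert peak at the distance of its summit from the left end of the insert (kb), with its height the percentile of its fold among native peaks, up for the plus strand and down for the minus strand, in 1 panel per library. Peaks cover the insert from end to end on both strands, and the tallest lines recur between the replicates of an order and differ between the orders.

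Mirrored positions of the reversed starts met forward starts about as often as unmirrored positions did. Of the 65 reproducible synHPRT1R regions, 34 (52.3%) overlapped a reproducible synHPRT1 region, on either strand, once their positions were mirrored, and these took 30 of the 59 synHPRT1 regions (50.8%). Without mirroring, 28 of 65 (43.1%) overlapped. Mirroring assumed that both orders fill the same bounds of the insert, without vector bases at either end. That assumption was not tested, and an offset between the orders would lower the mirrored matches. Within 100 bp of a region's centre the counts were 9 mirrored and 10 unmirrored, and within 500 bp 36 and 36. Plus-strand peaks with a minus-strand summit within 300 bp upstream, the layout of a divergent promoter, were 17.0% and 13.5% of plus-strand insert peaks in synHPRT1R_integrated (8 and 7 peaks) and 11.4% and 8.33% in synHPRT1_integrated (5 and 4 peaks). On native DNA they were 0.72% and 1.20% in synHPRT1R_integrated and 0.70% and 1.82% in synHPRT1_integrated. The opposite layout, with a minus-strand summit within 300 bp downstream, was 17.0% and 17.3% of plus-strand insert peaks in synHPRT1R_integrated and 20.5% and 12.5% in synHPRT1_integrated, against 2.50% and 2.62% of native ones in synHPRT1R_integrated and 3.73% and 3.40% in synHPRT1_integrated. The part that the higher density of the insert has in the contrast with native DNA was not tested.

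Next to the insertion point a native gene and a native site had different peaks in the strains. PIR3, which encodes a structural protein of the cell wall, starts 1949 bp left of the insertion (XI, 144401 to 145378, plus strand). It had a start peak in 0 of 2 synHPRT1R_integrated libraries, against folds of 11.8 and 2.87 in synHPRT1_integrated, the second near the low end of its list (percentiles 72.6 and 18.9). All 4 YAC libraries, whose chromosome XI has no insert there, had the peak, with folds of 6.57 and 3.16 in synHPRT1R_YAC and 7.98 and 7.64 in synHPRT1_YAC. The synHPRT1R_integrated libraries had weak plus-strand peaks farther upstream, with summits 673 and 448 bp before the gene and folds of 2.56 and 2.52, and the wider window of 500 bp upstream counts 1 of them for PIR3.

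Between PIR3 and the insertion, a minus-strand peak stood in all 4 integrated libraries and in none of the 4 YAC libraries. Its summits lie 251 to 347 bp left of the insertion, in DNA with no annotated gene, and its strand points away from the insert. Its folds were 12.01 and 6.73 in synHPRT1R_integrated and 3.08 and 3.85 in synHPRT1_integrated, and its within-list percentiles 75.7 and 63.1, against 34.1 and 43.5. The ranks do not overlap, and no test was made of folds across lists. Whether the reads of this peak could also map to related sequence elsewhere was not tested. Medium and the presence of an insert cannot be told apart between integrated and YAC strains.

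Of the other near genes, none had a start peak in both libraries of 1 strain alone. PIR1, of the same cell wall family, had folds of 19.0 and 16.1 in synHPRT1R_integrated and 18.9 and 19.6 in synHPRT1_integrated. ELF1, a transcription elongation factor, had 48.9 and 49.2 in synHPRT1R_integrated and 49.1 and 49.8 in synHPRT1_integrated, all at the ceiling just under 50 where folds cannot show a difference. RCN1, a calcineurin regulator, had a start peak in 1 library of each order, and MCD4, YKL162C, KDX1 and APE2 had none in any. Within 50 kb of the insertion there were 30 and 28 peaks in synHPRT1R_integrated and 29 and 34 in synHPRT1_integrated, a log2 difference of -0.12 in density (exact two-sided permutation test, p = 0.667). The right flank held 16 and 14 peaks in synHPRT1R_integrated, against 17 and 19 in synHPRT1_integrated, groups that did not overlap (exact two-sided permutation test, p = 0.333). The left flank held 14 and 14 peaks in synHPRT1R_integrated, against 12 and 15 in synHPRT1_integrated, groups that overlapped. The planned test took both flanks together. Of 49 peak regions in the flanks, 0 were present in both synHPRT1R_integrated libraries alone (0% called) and 1, that of PIR3, in both synHPRT1_integrated libraries alone (2.04% called), and 17 were in all 4. Of 50 genes starting there, 15 were started in each of the 4 libraries and 21 in none.

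Across the genome more native genes had a start peak in the reversed strain, whose lists also held more peaks. A gene was counted when a peak on its strand reached its start window, which takes in 300 bp before the annotated start and 100 bp after it. This held for 2533 and 2665 of 6002 genes in synHPRT1R_integrated and 2393 and 2403 in synHPRT1_integrated. The groups did not overlap and differed by 201 genes (exact two-sided permutation test, p = 0.333, the smallest possible). When the lists were cut to equal length the difference was 109.5 genes.

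A start peak in 2 of 2 synHPRT1R_integrated and 0 of 2 synHPRT1_integrated libraries was found at 152 genes (2.53% of 6002), and the opposite at 79 genes (1.32%). Far more genes differed between replicates: 1068 had a start peak in 1 of the 2 synHPRT1R_integrated libraries and 1102 in 1 of the 2 synHPRT1_integrated libraries. No gene passed a test, since Fisher's exact test at 2 against 2 libraries gives at least p = 0.333 (smallest Benjamini-Hochberg adjusted p = 1), and 0 genes had an unadjusted p under 0.05. The separating peaks were weak, with median folds of 3.03 at the 152 genes and 3.11 at the 79 genes, against 12.1 at the 1531 genes with a start peak in all 4 libraries. Both peaks ranked above the native median at 14 of the 152 and 6 of the 79.

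The YAC libraries give the same contrast in separate strains. Of the 152 genes, 7 (4.61%) separated the same way there and 9 (5.92%) the opposite way; of the 79, 4 (5.06%) separated the same way and 2 (2.53%) the opposite way. Over all genes 1.33% and 1.6% separated in these YAC directions, synHPRT1R alone and synHPRT1 alone. The same-way genes were PAF1, SHS1, PRP21, SFT1, GTT2, REX4 and RPS10A for synHPRT1R and TAX4, TRI1, TRM13 and AXL1 for synHPRT1. Among them PAF1, a subunit of an RNA polymerase II elongation complex, had folds of 4.65 and 2.21 in synHPRT1R_integrated and of 4.28 and 6.26 in synHPRT1R_YAC. RPS10A, a ribosomal protein gene with a near-identical copy that can share its reads, had folds of 2.096 and 3.89 in synHPRT1R_integrated, with both summits beyond the window, inside the gene. REX4 no longer separated at a −log10 q of at least 10, and neither RPS10A nor AXL1 when the summit itself had to lie in the window. Among the same-way genes, these settings were followed gene by gene for PAF1, REX4, RPS10A and AXL1 alone. GTT2 and SFT1 had folds of only 1.78 and 1.79 in synHPRT1R_integrated replicate 1.

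RRP45, a core subunit of the RNA exosome, was the strongest clear case in synHPRT1R_integrated. Its start peak, shown above, had folds of 12.02 and 12.2 with summits 5 and 4 bases after the first base of the ATG, and none of the other 6 libraries had any peak within 1 kb on that strand. IMD4, an inosine monophosphate dehydrogenase of guanine nucleotide synthesis, likewise had folds of 7.36 and 4.67 in synHPRT1R_integrated and no peak in the other 6; its close relatives IMD2 and IMD3 make its mapping uncertain. ATP19, a subunit of the mitochondrial ATP synthase, had folds of 8.54 and 9.77, and BRL1, a nuclear envelope protein, 8.54 and 8.65. Both had no start peak in synHPRT1_integrated but had one in some YAC libraries, 1 of 4 for ATP19 and 3 of 4 for BRL1. The next genes were BXI1, a Bax inhibitor relative (7.14 and 7.77), ADE13, adenylosuccinate lyase (6.48 and 9.18), MED4, a Mediator subunit (5.83 and 8.00), TAH11, a replication licensing factor (5.73 and 5.84), and SRP1, the importin alpha of yeast (5.56 and 6.51). BDH2 and PTR3, a component of the amino acid sensor of the cell surface, closed the set of 12. The TAH11 peaks had their summits 101 and 107 bp into the gene, and TAH11 no longer separated when the summit had to lie in the window. BXI1 and PTR3 had a start peak in all 4 YAC libraries too, so the synHPRT1_integrated libraries were the only 2 of the 8 without one.

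In synHPRT1_integrated the leading genes were weaker. SCO1, a copper chaperone of cytochrome c oxidase, had folds of 6.47 and 5.13, YAP5, an iron-responsive transcription factor, 6.12 and 8.27, and VAC14, a regulator of phosphoinositide synthesis on the vacuole, 5.71 and 14.6, with no start peak in synHPRT1R_integrated. SMC4, a condensin subunit shown above, had folds of 4.59 and 5.61 with summits 45 and 78 bases into the gene, and SHE1, a microtubule-associated protein, 3.87 and 4.80. YAP5 also had a start peak in all 4 YAC libraries, while SMC4 and SHE1 had no start peak in any other of the 8 libraries. JSN1, an RNA-binding protein (5.09 and 8.18), EKI1, ethanolamine kinase (4.75 and 6.20), MNN5, a mannosyltransferase (6.06 and 7.14), MIC27, a mitochondrial inner membrane organiser (6.97 and 5.86), PHO81, a cyclin-dependent kinase inhibitor (3.48 and 4.11), and HRT3, an F-box protein (3.43 and 5.10), completed the set with HST2. SHE1 and JSN1 no longer separated when the summit had to lie in the window. Like YAP5, MIC27, HRT3 and HST2 had a start peak in all 4 YAC libraries. SCO1 had one in 1 synHPRT1R_YAC and both synHPRT1_YAC libraries, and JSN1 in both synHPRT1R_YAC libraries and 1 synHPRT1_YAC library. VAC14 and PHO81 had one in 1 YAC library of each order, and EKI1 and MNN5 in both synHPRT1R_YAC libraries alone.

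The highest-ranked gene in each direction came from the edge of the counting window. At EXO5, a mitochondrial exonuclease gene, a strong peak with its summit 413 and 414 bp upstream in synHPRT1R_integrated (folds 32.9 and 34.0) was also present, with its summit 417 bp upstream, in synHPRT1_integrated (47.2 and 40.0); its edge reached the window by a few bases in the synHPRT1R_integrated libraries. At HST2, a Sir2-type deacetylase, the summit stood 136 and 126 bp inside the gene in synHPRT1_integrated (folds 12.2 and 11.1) and 142 and 140 bp inside it in synHPRT1R_integrated (5.11 and 11.1), where the peak ended short of the window. Leaving out every gene whose start peak overlaps a peak of the other strain, a check added after seeing the data, kept 147 of the 152 genes and 72 of the 79; EXO5 was among those lost from the first group, and HST2, MNN5 and MIC27 from the second.

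**Figure D4:**
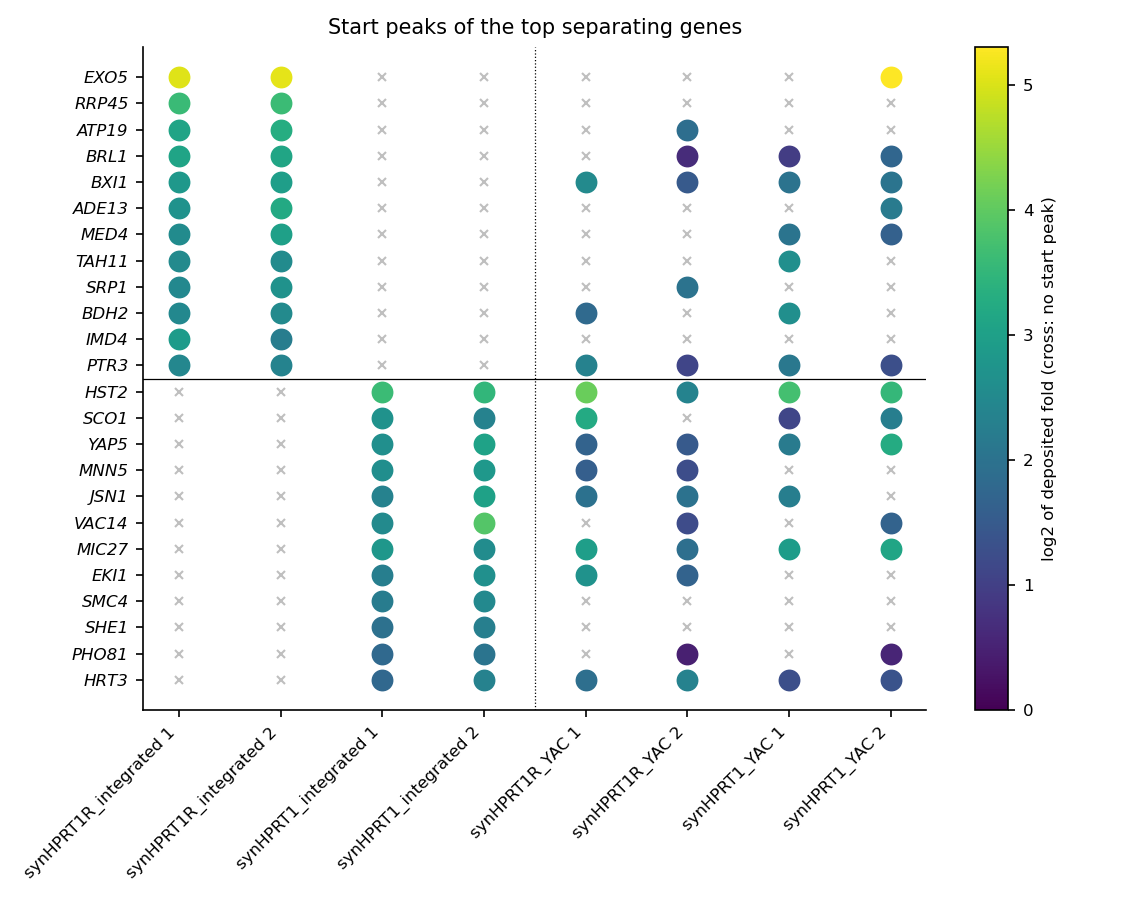
Dots give the log2 of the deposited fold of the start peak of the 12 highest-ranked genes of each direction (rows; synHPRT1R alone above the line) in the 4 integrated and the 4 YAC libraries (columns), with a cross where no peak reached the window. RRP45 and IMD4 have dots in the synHPRT1R_integrated libraries alone, SMC4 and SHE1 in the synHPRT1_integrated libraries alone.

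Few members of any gene group separated. The 19 groups hold 451 memberships, of which 18 (3.99%) separated with synHPRT1R_integrated and 4 (0.89%) with synHPRT1_integrated, beside 2.53% and 1.32% of all genes. Of 26 purine and one-carbon genes, the pathway that HPRT1 itself belongs to, 3 (ADE13, IMD4 and FCY2, a purine permease) had a start peak in synHPRT1R_integrated alone, 0 in synHPRT1_integrated alone and 13 in all 4. FCY2 also had a start peak in all 4 YAC libraries and ADE13 in 1 synHPRT1_YAC library, and the mapping of IMD4 is uncertain. HPT1 was present throughout, with folds of 31.9 and 32.6 in synHPRT1R_integrated and 39.0 and 42.8 in synHPRT1_integrated. Of 38 genes of chromatin remodelling and silencing, 3 had a start peak in synHPRT1R_integrated alone and 0 in synHPRT1_integrated alone: SET1, a histone H3 lysine methyltransferase (folds 2.00 and 2.71), SWR1, the exchanger of histone H2A.Z (2.29 and 1.66), and SNF5, a SWI/SNF subunit (1.51 and 2.77), all low in their lists, and all 3 no longer separated at a −log10 q of at least 10. The SWR1 peaks of synHPRT1R_integrated replicates 1 and 2 did not overlap, with summits 145 bp into the gene and 65 bp before it. HTZ1, the gene of H2A.Z, was the only separating gene among 11 histone genes, with folds of 2.73 and 3.80 in synHPRT1R_integrated, and had a start peak in all 4 YAC libraries.

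Glycolysis, stress and meiosis genes held 0 separating members. Of 20 glycolysis and fermentation genes, 17 were started in each of the 4 libraries and 3 in none, 22 of 30 stress response genes were started in all 4, and 0 of 20 meiosis and sporulation genes had a peak in any. Amino acid genes under Gcn4 had a start peak at 16 and 19 of 30 members in synHPRT1R_integrated and 10 and 13 in synHPRT1_integrated. Over all genes the shares were 42.2% and 44.4% in synHPRT1R_integrated and 39.9% and 40.0% in synHPRT1_integrated. The difference in this group was not tested. LEU1 and ARG56, an arginine synthesis gene with folds of 2.46 and 2.99, separated with synHPRT1R_integrated. The summits at ARG56 lay 175 and 125 bp into the gene, beyond the window. On the YAC, LEU1 had a start peak in both synHPRT1 libraries and 1 synHPRT1R library, and ARG56 in 1 synHPRT1 library. NOP56 and REX4 separated with synHPRT1R_integrated among 30 ribosome biogenesis genes, neither of them at a −log10 q of at least 10, and RPS10A among 30 ribosomal protein genes. CYC1, cytochrome c, separated with synHPRT1_integrated among 26 respiratory genes (folds 9.44 and 2.49, percentiles 67.6 and 13.9). On the YAC, CYC1 had a start peak in both synHPRT1R libraries (folds 13.9 and 7.24) and in 1 synHPRT1 library (7.36). The group of 22 ergosterol genes held 0 separating members either way. With synHPRT1R_integrated alone separated CPR6 among 20 chaperones, TIS11 among 20 iron and copper genes, PAF1 among 28 genes of elongation, termination and RNA decay, and RFA3, a subunit of replication protein A, among 30 DNA damage and replication genes (folds 3.34 and 9.11). At CPR6 the separating peaks were weak (folds 3.35 and 4.60), a stronger peak stood farther upstream in all 8 libraries (summits 473 to 504 bp before the gene in the integrated libraries), and the gene no longer separated with a window of 500 and 200 bp or with the summit in the window. PHO81 separated with synHPRT1_integrated among 18 phosphate genes. Of 18 mating type a genes, STE2, the alpha-factor receptor, separated with synHPRT1R_integrated (folds 1.60 and 2.25, not at a −log10 q of at least 10) and AXL1, a protease that matures a-factor, with synHPRT1_integrated (3.12 and 7.27). The STE2 peaks of synHPRT1R_integrated replicates 1 and 2 did not overlap, with summits 391 bp before the gene and 69 bp into it. Of the 4 auxotrophy markers HIS3 had a start peak in 1 library of each strain. Of 30 cell wall genes 1 separated each way, PST1 with synHPRT1R_integrated and PIR3 with synHPRT1_integrated.

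Native peaks taken as regions separated more often with synHPRT1R_integrated at gene starts, but not outside them. Of 5601 regions, 186 (3.32%) had a peak in both synHPRT1R_integrated libraries alone and 125 (2.23%) in both synHPRT1_integrated libraries alone. Among the 1986 regions outside gene starts the counts were 40 (2.01%) and 49 (2.47%). The clearest of these were a sense peak inside ESF1, a ribosome biogenesis gene, with folds of 7.26 and 8.68 in synHPRT1R_integrated, and an antisense peak over PHO5, the repressible acid phosphatase, with folds of 7.06 and 7.37 in synHPRT1_integrated. The separating genes lay on every chromosome, and chromosome XI held 4 of the 152 and 4 of the 79 among its 318 genes (1.26% each). Native peaks were shared across the strains about as often as between replicates: the share of peak regions held in common was 47.4% to 51.9% over the 4 pairs across strains, against 51.5% for the synHPRT1R_integrated replicates and 48.5% for the synHPRT1_integrated replicates. The 3 pairs that hold synHPRT1_integrated replicate 2 were the lowest.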

How the data were processed

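Start sites were measured by CAGE in total RNA, starting from 5 µg and with 20 PCR cycles, per the labels' protocols. The submitters' processing notes name bcl2fastq 2.20, Bowtie2 2.2.9, SAMtools 1.9, deepTools 3.5.0, MACS2 2.1.0 and sacCer3, without roles. The authors deposited a peak list for each library, strand and reference, with no replicates pooled in a list; each peak has a deposited fold (a ratio to background), a deposited −log10 p and a deposited −log10 q. The sources used here do not give the peak threshold, and read counts were not used here. Folds stop just under 50 in each list used, so strong peaks are compressed at the top.

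The lists made against chromosome XI with the insert were used, forward lists as plus strand. Peaks that match between both references put the insert after base 146350 with a length of 100578 bp, on the assumption that no native DNA was removed. Densities, shares and ranks were computed per library with Python 3.11.15, pandas 2.3.3 and scipy 1.17.1, and compared by exact permutation over libraries. Genes came from the R64 annotation, and all 451 listed memberships matched. Named genes were the up to 12 per direction with the highest lower percentile of fold, up to 4 separating members of each list, all genes starting within 10 kb of the insertion, and fixed markers. The members, lists and rules were chosen with earlier results of these data known. The gene comparison was run on simulated lists in which both replicates of a group held the same genes. It recovered 195 of 200 planted genes and called 2 others. This checks the counting and says nothing of the disagreement between real replicates. Alternatives were a −log10 q of at least 10, equal list lengths, covered bases, the contig reference, other windows, other flank lengths and each library left out. Lists of the YAC libraries against the contig reference were left out.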

Additional observations from a re-analysis of the deposited data

Results flagged for a closer look

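At 3 of the leading genes the strains separated one way when the sequence was integrated and the other way when it was on the YAC. The YAC strains grew in SC-Leu and the integrated strains in YPD, and the difference between the contexts was not tested. Among all separating genes, 9 of the 152 (5.92%) and 2 of the 79 (2.53%) separated the opposite way on the YAC. The same way there went 7 (4.61%) and 4 (5.06%). MED4 had a start peak in 2 more libraries of synHPRT1R than of synHPRT1 when integrated (difference 2), and on the YAC in both synHPRT1 libraries alone. EKI1 and MNN5 each had a difference of -2 when integrated, and on the YAC a start peak in both synHPRT1R libraries alone. At MNN5 a peak of synHPRT1R_integrated replicate 1, beyond the window, overlapped a start peak of synHPRT1_integrated.

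The mitochondrial genome lies outside the nuclear chromosomes and is not used in the comparisons. It held 5 and 4 peaks in synHPRT1R_integrated replicates 1 and 2, and 2 and 4 in synHPRT1_integrated replicates 1 and 2. Libraries with more than 3 were flagged, a fixed cut that is not a test.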

How the results depend on the processing

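The density of the insert over native DNA stayed above 0 in every alternative run (log2 1.78 to 2.08, and 1.78 to 1.81 with each library left out). The difference in insert density, synHPRT1R minus synHPRT1, stayed at or above 0 (0.001 to 0.17 with each library left out). Small differences changed sign. The plus-strand share was -0.57 percentage points at a −log10 q of at least 10, -1.40 at equal list lengths and -0.84 against the contig reference (0.24 to 1.28 with each library left out). The fold percentile was -3.86 when ranked by −log10 q, and -1.64 to 2.68 with each library left out. The flank density was 0.056 at a −log10 q of at least 10, and -0.23 to -0.001 with each library left out. The cause was not tested.

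Genes with a start peak in synHPRT1R_integrated alone numbered 99, and in synHPRT1_integrated alone 50, when presence needed a −log10 q of at least 10 and absence no peak at any q. With 1 library left out, fewer libraries have to agree, and the counts were 301 to 428 and 190 to 301; the lowest and highest came without synHPRT1_integrated replicate 2 and without synHPRT1R_integrated replicate 1 for the first, and without synHPRT1R_integrated replicate 1 and without synHPRT1_integrated replicate 1 for the second. The difference in genes with a start peak was 135 to 267. The share of separating genes on the synHPRT1R side was 65.8%, and 59.5% at equal list lengths. Of the 43 named separating genes, 37 still separated at a −log10 q of at least 10, 39 at equal list lengths, 37 with the window of 500 and 200 bp, 32 with the summit in the window and 43 against the contig reference. Regions at mirrored positions numbered 9 with centres within 100 bp. The replicate numbers carry no stated pairing, and deviations of same-numbered libraries correlated at -0.026 over 1531 genes; within replicate numbers as a block, insert density differed by 0.08 and the gene counts were 152 and 79 by construction. Peaks without read counts, and 2 libraries a group, limit all these values.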
